A study of Capsella orientalis and Capsella grandiflora with 23 samples.

Results

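Short genes, here genes whose annotated interval spans less than 1000 bp from start to end, made up 3326 of the 23185 genes listed in 4 tables of allele-specific endosperm RNA reads from Capsella. They were set against the 18201 listed genes of 1000 to 5000 bp. Members were chosen by length alone, and a gene was used in a table if its exonic SNPs together carried at least 20 reads in each of the 2 cross directions. By that minimum 800 and 261 short genes were used in the 2 Capsella grandiflora (Cg) tables, and 63 and 90 in the 2 Capsella orientalis (Co) tables. In all, 948 short genes were used in at least 1 table, 738 of them in 1 table only and 9 in all 4.

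The study crossed accessions reciprocally within each species and sequenced RNA of endosperm dissected 6 days after pollination, from 300 to 500 seeds per replicate, after emasculating the female parent and pollinating by hand. In Cg, accessions A and B were crossed both ways, as were C and D; in Co, accessions A and B were crossed both ways, with replicates. The labels list 6 Cg and 8 Co endosperm RNA samples, repeat sequencing runs included. All of these endosperm samples are hybrids between accessions of 1 species, without any mutant or chemical treatment. Each table holds maternal and paternal read counts for directions 1 and 2 of a reciprocal pair, with pairs 1 and 2 for each species. Their columns name the parent and the direction but no accession, so an allele is named here by its plant: the accession of the direction 1 mother or of the direction 2 mother. The intervals carry no gene names, so neither the tissue label nor the function of a member could be checked against marker genes.

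Endosperm feeds the embryo of a flowering plant and carries 2 maternal genomes for each paternal genome, so a gene expressed equally from every copy gives a maternal share of 66.7%. A gene is imprinted when the allele of one parent is used more whichever accession supplied it. When instead the allele of one accession is used more whichever parent supplied it, as happens with a regulatory difference between accessions, the maternal share is high in one cross direction and low in the other. Reciprocal crosses separate these patterns. Genes under a kilobase in plants are often without introns and encode small proteins, among them ribosomal proteins, histones, storage albumins and secreted cysteine-rich peptides.

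The short genes used were 206 to 999 bp long, with medians of 693.5 and 724 bp in Cg pairs 1 and 2 and 704 and 738 bp in the Co pairs. Most consisted of a single exon: 59.0%, 62.1%, 65.1% and 60.0% of short genes in the 4 tables, against 9.39%, 7.80%, 6.79% and 6.37% of genes of 1000 to 5000 bp. Their SNPs were mostly exonic (80.6% to 84.3%, against 54.5% to 62.2%), and they held more exonic SNPs per kilobase of interval (4.23, 5.38, 3.22 and 2.67, against 1.73, 2.53, 1.61 and 1.06). A short gene nevertheless offered few SNPs. The median was 2 and 3 exonic SNPs in the Cg pairs and 1 in each Co pair, against 3, 5, 2 and 1, and the evidence came from a single SNP in 37.0%, 26.8%, 58.7% and 65.6% of short genes, against 21.4%, 8.55%, 47.5% and 55.9%. Of all listed short genes, 42 (1.26%) overlapped another listed interval, 41 of them one on the other strand, against 1286 (7.07%) of the longer genes. No source used here states that the counting used strand, so reads of such partners cannot be told apart.

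Depth differed more between tables than between length classes. Exonic counts in directions 1 and 2 came to 8688213 and 8559754 in Cg pair 1 and to 536882 and 871449 in Cg pair 2. The Co tables had 432157 and 187220 (pair 1) and 512748 and 538785 (pair 2). The minimum of 20 reads removed relatively more short genes: 39.3%, 11.6%, 10.1% and 21.2% of those listed were used, against 60.8%, 25.1%, 13.7% and 28.4% of the longer genes. Among the genes used, short genes had a median of 101, 28.0, 60.5 and 72.2 reads per exonic SNP and direction, against 100, 13.5, 43.0 and 51.0. The minimum applies to the sum of a gene, so it asks more reads per SNP of a gene with few SNPs, and the order turned without it. With no minimum the medians were 22.5, 4.97, 10.0 and 14.7 reads in short genes, against 61.2, 6.0, 13.2 and 18.0. Reads per gene had medians of 212.5 and 189 in directions 1 and 2 of Cg pair 1 for short genes, against 290 and 284.5. Short genes of Cg pair 2 had 62 and 81 reads, against 50 and 79. The Co medians were 99 and 65 reads in pair 1, against 102.5 and 49, and 88.5 and 102 in pair 2, against 76 and 81. Reads that cover more than 1 SNP enter these sums once for every SNP, so the sums exceed the number of reads.

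A few abundant transcripts carried much of the short-gene signal in Co. The 3 most read short genes held 57.9% and 56.4% of all short-gene reads in Co pairs 1 and 2, but 10.5% and 15.6% in the Cg pairs. The most read Co member, at 4731422 to 4732126 on scaffold 7 (plus strand), sat at the dosage: the mother gave 67.3% and 65.5% of reads in the 2 directions of pair 1 and 68.3% and 67.3% of those in pair 2, over 14400 and 26770 reads. A member at 8591172 to 8592148 on scaffold 5 (plus strand) was used in all 4 tables and gave 66.0% and 67.6% in Cg pair 1, 56.4% and 64.7% in Cg pair 2, 65.7% and 69.2% in Co pair 1, and 64.5% and 67.5% in Co pair 2. Another, at 6127743 to 6128518 on scaffold 6 (minus strand), had shares of 64.6%, 69.1%, 67.8% and 65.3% over the 4 Co directions. In none of the 3 genes did a Co direction lie far from the dosage.

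The Cg members with most reads were less even. At 342195 to 342725 on scaffold 8 (plus strand) 47269 reads gave shares of 67.1% and 58.6% in pair 1, and 4924 reads gave 69.8% and 60.3% in pair 2. The next, at 9439219 to 9440016 on scaffold 4 (minus strand), had 65.6% and 67.3% in pair 1. Another, at 10270877 to 10271332 on scaffold 8 (plus strand), had 65.2% and 68.5% in pair 1, over 34025 reads. In pair 2, between other accessions, that gene had a share of 32.9% (95% Wilson interval 28.9% to 37.2%) in direction 1 and 87.2% (84.3% to 89.7%) in direction 2, so the allele of the direction 2 mother was the more abundant. In pair 2 the most read member, at 7192366 to 7192653 on scaffold 5 (plus strand), showed the same pattern, with 38.5% and 80.4% over 5509 reads. The member at 484784 to 485607 on scaffold 5 (plus strand) leaned the same way in both pairs. It had 49.7% and 75.0% between the accessions of pair 1, and 41.4% and 73.8% in pair 2. In neither pair did it pass the fold used below for an accession difference. Its 2 SNPs in pair 1 gave 35.1% to 63.1% in direction 1 and 65.7% to 83.0% in direction 2. Wilson intervals cover counting error only, and they treat the summed counts as independent reads. Where reads cover more than 1 SNP of a gene, the intervals are too narrow even for counting error.

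The typical short gene followed the dosage about as the longer genes did. Its median maternal share was 67.3% and 67.9% in directions 1 and 2 of Cg pair 1, against 66.7% and 66.8% for genes of 1000 to 5000 bp. In Co pair 1 it was 66.3% and 68.7%, against 65.1% and 69.3%, and in Co pair 2 66.9% and 70.1%, against 68.7% and 69.0%. Cg pair 2 stood apart: direction 1 had a median of 52.8% in short genes, against 54.8%, and direction 2 had 70.0%, against 67.9%. Differences between the length classes ran from -2.06 to 2.14 percentage points over the 8 directions and were positive in 5 of them. With 1 set of summed counts per direction and genes that are not replicates, no test was made.

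Around that centre short genes scattered more widely by SD, though not by the middle 50% in every direction. The middle 50% of short genes spanned maternal shares of 53.4% to 77.3% in direction 1 of Cg pair 1, against 58.8% to 74.0% for the longer genes. In direction 2 of Co pair 2 the span was no wider, at 64.1% to 80.7%, against 60.6% to 77.4%. It was about equal in direction 2 of Cg pair 2, at 59.2% to 81.9%, against 56.7% to 78.9%. The mean log2 deviation of the 2 directions, the log2 of maternal reads over 2 times the paternal reads with 0.5 added to each count, had an SD of 1.49 over short genes, against 1.12, in Cg pair 1. In the other tables the SDs were 1.11, 1.09 and 1.22, against 0.95, 0.97 and 0.96. The deviation is 0 at the dosage and positive towards the mother, and its medians were -0.06, -0.36, -0.02 and 0.01 in short genes, against -0.02, -0.37, -0.04 and 0.07.

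A gene was counted as maternal where its log2 deviation was at least 1 in both directions of a table, which is a maternal share of about 80% or more, and as paternal where it was at most -1 in both, a share of about 50% or less. In Cg pair 1, 52 short genes were maternal (6.50%), against 349 (3.82%) of the longer genes and 3.84% of all genes used. Paternal short genes numbered 16 (2.00%), against 265 (2.90%) and a background of 2.85%. Among the short genes of Cg pair 2 the maternal ones were 10 (3.83%), against 44 (1.11%) and a background of 1.15%, and the paternal ones 9 (3.45%), against 183 (4.60%) and 4.61%. With each direction's median in place of the dosage, Cg pair 2 had 13 maternal and 5 paternal short genes and Cg pair 1 had 52 and 14. Shares of the longer genes at these medians are not given. At the dosage, both Cg tables held a larger share of maternal and a smaller share of paternal genes among short genes than among longer ones. The paternal order turned in Cg pair 2 at 200 or more reads in the shallower direction (4.65% of 43 short genes, against 1.19% of 335). In the other depth classes of both tables short genes were lower. The edgeR test below called 5 of 144 short genes paternal, against 37 of 3027 longer genes.

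In Co the members past the fold were few. Co pair 1 had 3 maternal (4.76%) and 2 paternal (3.17%) short genes, against 28 (2.92%) and 19 (1.98%) longer genes and backgrounds of 2.84% and 2.03%; with each direction's median as the centre they were 3 and 1. Co pair 2 had 3 maternal (3.33%) and 2 paternal (2.22%), against 76 (4.57%) and 21 (1.26%) and backgrounds of 4.16% and 1.45%. Maternal and paternal genes combined gave 8.50% of short genes in Cg pair 1 (95% Wilson interval 6.76% to 10.6%), 7.28% in Cg pair 2 (4.71% to 11.1%), 7.94% in Co pair 1 (3.44% to 17.3%) and 5.56% in Co pair 2 (2.40% to 12.4%). The longer genes gave 6.72%, 5.71%, 4.91% and 5.83%, and all genes used 6.69%, 5.76%, 4.87% and 5.61%. The intervals count genes of 1 table and are no test between length classes.

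**Figure D1:**
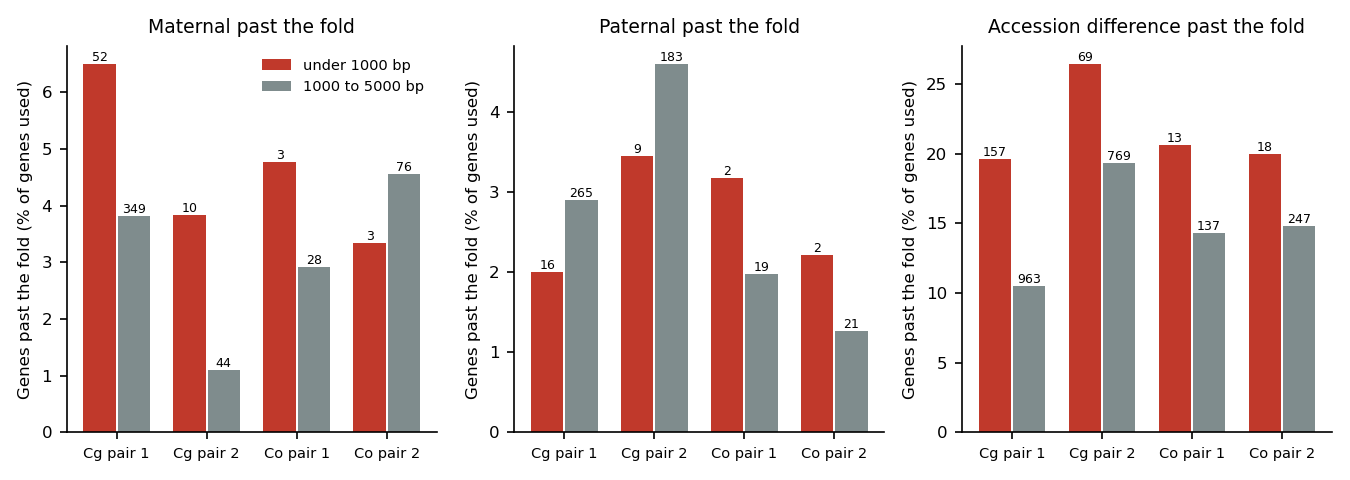
Percent of genes used in each table (vertical axes, each panel with its own scale) that were maternal, paternal or different between accessions past the fold, for genes under 1000 bp (red, left) and of 1000 to 5000 bp (grey, right), with the number of genes above each bar. The red bars of the accession panel, 19.6% to 26.4%, stand above the grey ones, 10.5% to 19.3%, in all 4 tables, while the red maternal bar is the lower one in Co pair 2.

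The maternal short genes of Cg pair 1 included members with almost no paternal read. The gene at 11323031 to 11323372 on scaffold 4 (plus strand) had 732 maternal and 2 paternal reads in direction 1 and 740 and 0 in direction 2, all at 1 SNP, and the 0 allows a maternal share down to 99.6%. The gene at 16862056 to 16862493 on scaffold 7 (plus strand) had 376 maternal and 0 paternal reads in direction 1 and 279 and 0 in direction 2, also at 1 SNP, which allows shares down to 99.2% and 98.9%. A limit of this kind is what 3 counts of the total would give. At 10775864 to 10776717 on scaffold 2 (plus strand), 4 exonic SNPs gave 93 and 904 maternal reads in directions 1 and 2 and no paternal read, which allows maternal shares down to 96.8% and 99.7%. The first of these 3 was also used in Co, where it followed the accession: its maternal share was 10.3% and 100% in Co pair 1, over 39 and 21 reads, and 0% and 100% in Co pair 2, over 67 and 31 reads, where the 0 allows a share of up to 4.48%.

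The paternal extremes of Cg pair 1 lay on scaffolds 7 and 4. At 6099424 to 6100338 on scaffold 7 (minus strand) 7 SNPs gave 2 maternal and 146 paternal reads in direction 1 and 2 and 84 in direction 2, maternal shares of 1.35% (95% Wilson interval 0.371% to 4.79%) and 2.33% (0.640% to 8.09%). At 6795887 to 6796402 on scaffold 7 (minus strand) 1 SNP gave 4 and 429 reads in direction 1 and 8 and 146 in direction 2, shares of 0.924% and 5.19%. Another paternal gene, at 2853692 to 2854453 on scaffold 4, is described with the tested genes. In each of these genes the father supplied most reads in both directions.

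Cg pair 2 added others. The gene at 13480689 to 13481412 on scaffold 3 (plus strand) had 288 maternal and 3 paternal reads in direction 1 and 335 and 7 in direction 2, shares of 99.0% (97.0% to 99.7%) and 98.0% (95.8% to 99.0%). Its 6 SNPs ran from 92.3% to 100% in direction 1 and from 92.7% to 100% in direction 2. The gene at 8891825 to 8892415 on scaffold 7 (minus strand) had shares of 93.2% (87.2% to 96.5%) and 94.9% (89.4% to 97.7%), with 118 reads in each direction. On the paternal side the gene at 13831100 to 13831540 on scaffold 3 (plus strand) had 13 maternal and 233 paternal reads in direction 1 and 39 and 125 in direction 2, shares of 5.29% (3.11% to 8.83%) and 23.8% (17.9% to 30.8%). These sums came from 16 SNPs, of which 2 in each direction had 20 or more reads. Those gave 8.0% to 10.7% in direction 1 and 6.90% to 8.33% in direction 2, the latter below the summed share.

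**Figure D2:**
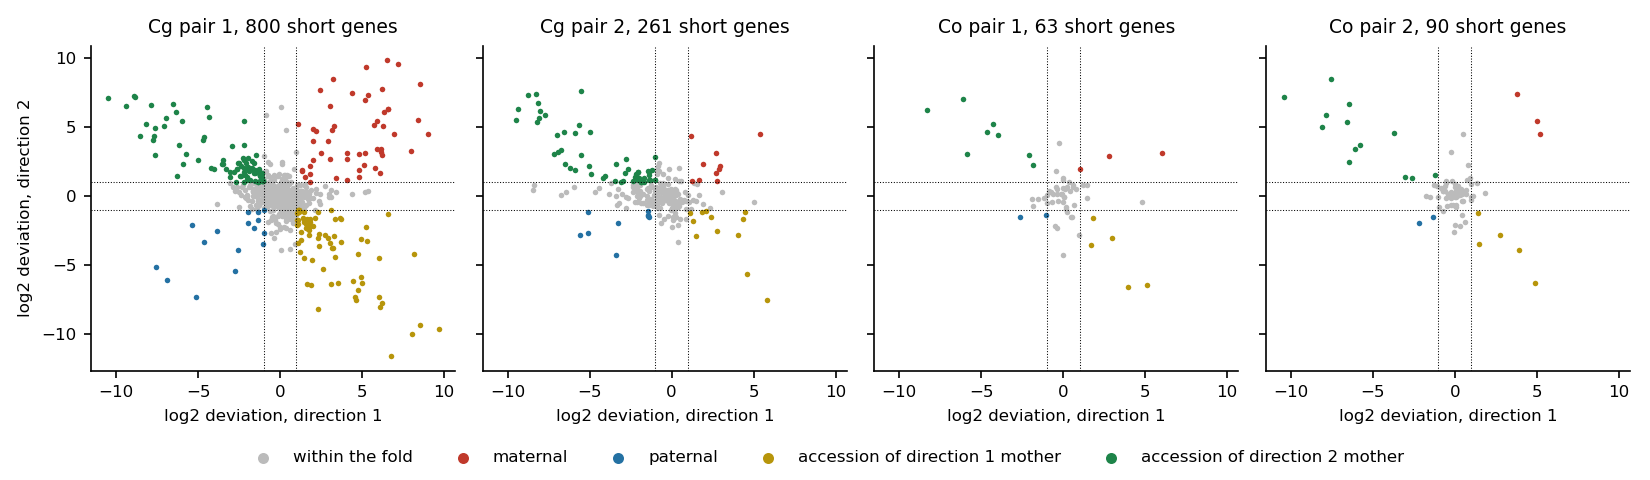
Log2 deviation from the dosage in direction 1 (horizontal) and direction 2 (vertical) of each short gene used, 1 panel per table, with dotted lines at -1 and 1. Genes past the fold on the maternal side (52, 10, 3 and 3 over the panels) lie upper right and paternal ones (16, 9, 2 and 2) lower left, while the accession differences, 157, 69, 13 and 18, fill the upper left and lower right corners and outnumber them in every panel.

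Among short genes past the fold in both directions, differences between accessions were more frequent than parental bias in all 4 tables. The longer genes had the same order, with 963 against 614, 769 against 227, 137 against 47 and 247 against 97. Genes past the fold in a single direction are in neither count. A gene counted as different between accessions when its log2 deviation was at least 1 in one direction and at most -1 in the other. This held in Cg pair 1 for 157 short genes, 19.6% (95% Wilson interval 17.0% to 22.5%), against 963 longer genes, 10.5% (9.92% to 11.2%), and 10.9% of all genes used. It held in Cg pair 2 for 69 short genes, 26.4% (21.5% to 32.1%), against 769, 19.3% (18.1% to 20.6%), and a background of 19.7%. Co pair 1 had 13, 20.6% (12.5% to 32.2%), against 137, 14.3% (12.2% to 16.7%), with a background of 14.6%. Co pair 2 had 18, 20.0% (13.0% to 29.4%), against 247, 14.8% (13.2% to 16.6%), with a background of 14.3%. The share was higher in short genes in all 4 tables, a description of these libraries without a test.

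Short genes were used from either accession in Cg pair 1, where the allele of the direction 1 mother was higher in 72 and that of the direction 2 mother in 85, against backgrounds of 4.98% and 5.95% (9% and 10.6% of short genes). Cg pair 2 was lopsided, with 12 and 57 short genes (4.60% and 21.8%, backgrounds 2.65% and 17.0%). That table's direction 1 also had the low median maternal share given above. With each direction's median in place of the dosage the counts of short genes were 18 and 43, and those of all genes at that centre are not given. In Co pair 1 the counts were 5 and 8 (backgrounds 6.58% and 8.04%), and in Co pair 2 they were 5 and 13 (7.44% and 6.88%). All reads of a gene came from 1 accession in 9, 5, 2 and 4 short genes (1.13%, 1.92%, 3.17% and 4.44%), against 0.569%, 1.94%, 0.835% and 1.98% of the longer genes and 0.598%, 1.78%, 0.812% and 1.78% of all genes used.

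The clearest member of Cg pair 1 was at 9883953 to 9884729 on scaffold 6 (minus strand), where 19 exonic SNPs gave 820 maternal and 0 paternal reads in direction 1 and 1 maternal and 577 paternal reads in direction 2. Every SNP with 20 or more reads had a maternal share of 100% in direction 1 and of 0% to 2.56% in direction 2. The gene at 4315253 to 4315828 on scaffold 1 (minus strand) had 770 and 3 reads in direction 1 and 0 and 760 in direction 2. Between the accessions of Cg pair 2 the same gene gave 57.1% and 58.1%, with no such difference between the directions. The opposite accession was higher at 11686126 to 11686470 on scaffold 5 (minus strand), with 0 and 365 reads in direction 1 and 409 and 1 in direction 2, and at 2219055 to 2219510 on scaffold 1 (minus strand), with 0 and 118 and 149 and 0. Both rested on 1 SNP.

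A gene of Cg pair 2, at 2934104 to 2934890 on scaffold 6 (plus strand), had 2 maternal and 542 paternal reads in direction 1 and 795 and 2 in direction 2. Between the accessions of Cg pair 1 it gave 61.8% (60.0% to 63.5%) and 68.6% (67.2% to 70.0%). The gene at 496768 to 497132 on scaffold 5 (plus strand) had 0 and 78 reads in direction 1 and 169 and 0 in direction 2. At 8760183 to 8760667 on scaffold 3 (minus strand) the allele of the direction 1 mother was higher, with 277 and 2 reads in direction 1 and 2 and 228 in direction 2. At 794030 to 794698 on scaffold 5 (minus strand) the shares were 93.7% (86.0% to 97.3%) and 25.6% (18.8% to 33.7%).

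All Co libraries come from crosses of the same 2 accessions, per the labels, and the named members differed between accessions in both Co tables. At 10329321 to 10330116 on scaffold 2 (plus strand) the maternal share was 97.2% and 1.61% in pair 1 and 98.7% and 2.26% in pair 2. In Cg pair 1 that gene had 85.8% (79.9% to 90.2%) and 66.7% (59.8% to 72.9%). At 822948 to 823208 on scaffold 4 (minus strand) the shares were 0% of 78 reads (up to 3.85% at this depth) and 100% of 75 reads in pair 1, and 0.719% of 139 and 100% of 347 in pair 2. At 9605695 to 9606003 on scaffold 5 (minus strand) they were 2.58% and 100% in pair 1, and 0% (up to 0.901%) and 99.8% in pair 2. The gene at 18888569 to 18889264 on scaffold 1 (minus strand) had 87.0% and 14.4% in pair 1 and 84.8% and 15.4% in pair 2. In all 4 genes the directions of a pair lay on opposite sides of the dosage and the pairs differed little.

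Set against length in finer steps, the share with an accession difference declined over the whole range in Cg pair 1. It was 23.8% below 500 bp, 18.9% from 500 bp and 17.6% from 750 bp, then 16.4% from 1000 bp, 12.1% from 1500 bp, 8.98% from 2000 bp, 8.90% from 3000 bp and 7.91% above 5000 bp, each class running up to the start of the next. There was thus no step at 1000 bp. Cg pair 2 gave 32.3%, 20.0% and 27.3% in the 3 short classes and 23.4% in the class from 1000 bp. Maternal genes in Cg pair 1 were most frequent around the limit, with 8.63% in the class from 750 bp and 7.39% in that from 1000 bp, against 4.29% below 500 bp and 2.09% above 5000 bp. In Co pair 2 the share of maternal genes was 2.44% and 10.5% in these classes, with 1 of 41 and 16 of 152 genes.

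At the limit itself, the longest members used, 999 and 998 bp in Cg pair 1, lay on scaffold 3 at 12301153 to 12302152 (plus strand) and on scaffold 2 at 9103415 to 9104413 (minus strand), with maternal shares of 68.9% and 66.0%, and 74.0% and 64.2%. The nearest longer genes, both 1000 bp in that table, lay on scaffold 1 at 9570515 to 9571515 (minus strand), with 83.3% and 26.7% over 30 reads each, and on scaffold 6 at 8367796 to 8368796 (minus strand), with 54.2% and 56.6%.

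**Figure D3:**
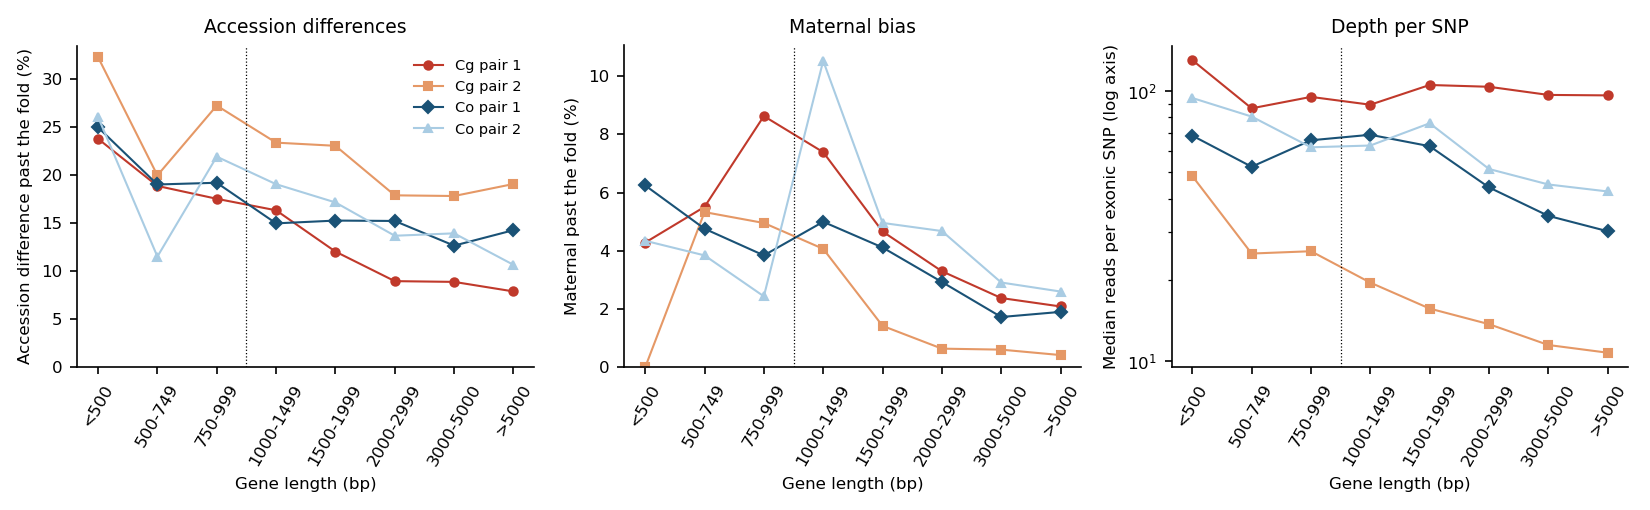
Percent of genes with an accession difference past the fold (left), percent maternal past the fold (middle) and median reads per exonic SNP on a log axis (right) of the genes past the minimum of 20 reads, by gene length class, 1 line per table, with a dotted line at 1000 bp. In Cg pair 1 the accession share runs down from 23.8% to 7.91% without a step at the line; the short classes of the Co pairs hold 16 to 41 genes each.

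Depth and the number of SNPs differ between the length classes, so the accession shares were also compared within classes of depth, taken as the reads of the shallower direction. In Cg pair 1 short genes had 23.7% at 20 to 49 reads, against 20.6%, 23.0% at 50 to under 200 reads, against 14.0%, and 14.7% at 200 or more, against 5.93%. Those of Cg pair 2 were 24.8%, 28.0% and 27.9% in the same order, against 21.5%, 17.3% and 15.5%. In Co pair 2 they were 26.5%, 17.6% and 13.6%, against 19.8%, 12.6% and 9.91%. Co pair 1 had 24.1% and 24.0%, against 16.9% and 12.1%, in the first 2 classes, and 0 of 9 short genes at 200 or more reads, which allows a share of up to 33.3%, against 10.2%. Short genes were thus higher in 11 of 12 depth classes, and shares of both length classes fell with depth in Cg pair 1.

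**Figure D4:**
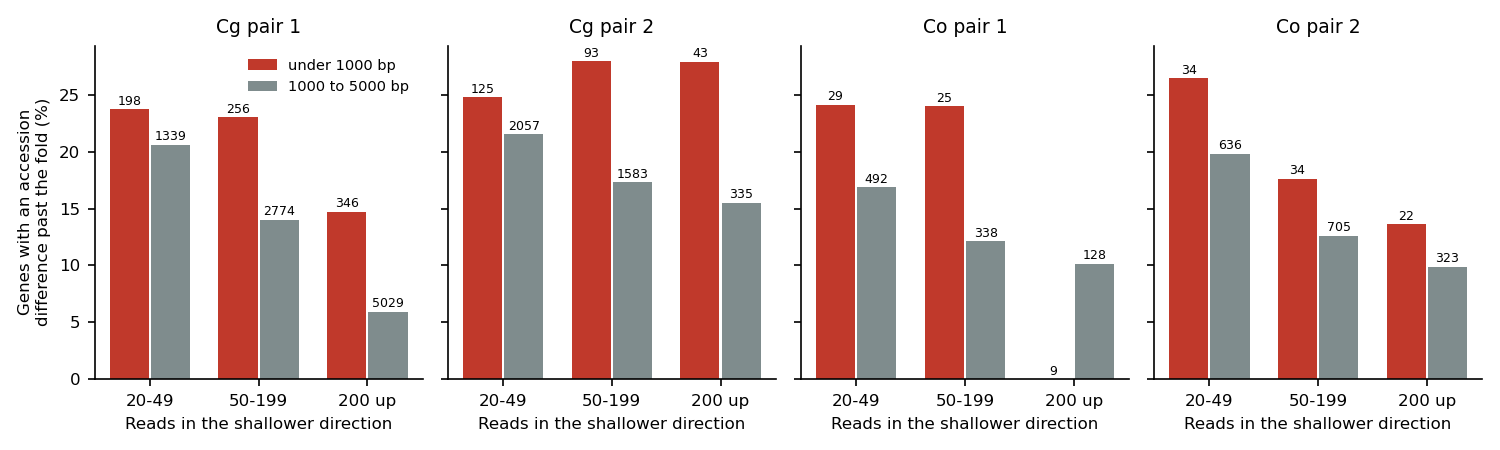
Percent of genes with an accession difference past the fold by the reads of the shallower direction, for genes under 1000 bp (red, left) and of 1000 to 5000 bp (grey, right), 1 panel per table, with the number of genes above each bar. Red stands above grey in every class but the deepest of Co pair 1, which holds 9 short genes and none past the fold.

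The maternal excess in Cg was less even over depth. Maternal short genes of Cg pair 1 made up 7.58% at 20 to 49 reads, against 7.39%, 8.59% at 50 to under 200 reads, against 4.61%, and 4.34% at 200 or more, against 2.43%. The Cg pair 2 values were 4.00%, 4.30% and 2.33%, against 1.22%, 0.884% and 1.49%, from 5, 4 and 1 genes. Genes with a single exon differed between lengths as well. Among single-exon genes of Cg pair 1, 17.6% of the short genes had an accession difference, against 12.7%, and among genes with several exons 22.6%, against 10.3%. By SNP number, 18.9% of short genes with 1 exonic SNP had one in Cg pair 1, against 14.1%, and 23.3% of those with at least 4, against 8.75%. The order turned in Cg pair 2 for genes with 1 SNP, with 31.4% of 70 short genes, against 42.1% of 340.

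Where a gene past the fold had at least 2 exonic SNPs with enough reads, the SNPs could be compared with each other. In Cg pair 1, 18 of 20 maternal and 3 of 3 paternal short genes lay on that side at every such SNP, against 116 of 160 and 120 of 150 longer genes. For accession differences it was 42 of 64 short genes, against 133 of 366. The numbers in Cg pair 2 were 3 of 4 maternal, 2 of 3 paternal and 7 of 20 accession genes, against 8 of 14, 6 of 14 and 71 of 164. Short genes hold fewer SNPs, and fewer SNPs are more easily all on one side, so these counts are not on an equal footing between the lengths.

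Parental bias was tested with edgeR over the 4 directions of a species, in all genes with at least 20 exonic reads in each. Its terms were the direction, treated as 1 library (the replicate block), the accession that an allele came from, separately for each pair, and the parent. The null was set at the dosage. In Cg, 6 of 144 short genes were called, 1 maternal and 5 paternal (4.17%), against 48 of 3027 longer genes (1.59%), and 1.73% of the 3698 genes tested (0.324% maternal, 1.41% paternal). Each of the 6 kept to 1 side of the dosage in every direction. In Co, 6 of 61 short genes were called, 3 on each side (9.84%), against 77 of 942 (8.17%), and 7.58% of 1213 (3.63% maternal, 3.96% paternal). There 2 maternal genes and no paternal gene lay on the same side in every direction. At an unadjusted p under 0.05 there were 16 short genes in Cg, against 231 of all 3698 tested, and 11 in Co, against 189 of 1213. The median log2 deviation was -0.22 in Cg, against -0.18, and 0.03 in Co, against 0.04.

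These calls rest on few libraries. Without direction 1 or without direction 2 of Cg pair 2, edgeR called 0 short genes (16 and 8 at an unadjusted p under 0.05), where DESeq2 with all 4 directions called 10. In Co it called 0 without direction 1 of pair 1, and 0 without direction 2 of pair 2 (6 and 5 unadjusted, 3 with DESeq2 and all directions), and without the other Co directions 2 and 3. Each such fit also lacked the accession term of that pair. With the null at each direction's median, 4 maternal and 6 paternal short genes were called in Cg, and with TMM factors 3 and 6. Counts over all genes tested are not given for TMM or for the fits with a direction left out. A change particular to short genes cannot be told there from a change in all genes.

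The maternal Cg gene lay at 8640281 to 8641210 on scaffold 5 (minus strand). It had 9193 maternal and 1137 paternal reads in direction 1 of pair 1 and 12856 and 1052 in direction 2, and 149 and 9, and 132 and 14, in pair 2. The maternal shares were 89.0% (95% Wilson interval 88.4% to 89.6%), 92.4% (92.0% to 92.9%), 94.3% (89.5% to 97.0%) and 90.4% (84.6% to 94.2%), all well above the dosage. The fitted log2 deviation came to 2.44 ± 0.20 (edgeR adjusted p = 0.00811, from a fit over n = 4 directions). Here and in what follows, an approximate SE stands after the ±. It is the absolute log2 value over the square root of the test's F statistic, and not a spread between the directions. In pair 1 the 5 SNPs of the gene ran from 81.5% to 91.3% in direction 1 and from 89.1% to 96.4% in direction 2. Over 15 alternatives the deviation ran from 2.29 to 2.63 and the call held in 10.

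The paternal Cg gene with the smallest adjusted p lay at 830598 to 831303 on scaffold 5 (plus strand), where pair 1 gave maternal shares of 12.4% (10.2% to 14.9%) and 26.0% (22.8% to 29.6%). Pair 2 gave 3.83% (2.21% to 6.58%) and 21.8% (18.0% to 26.1%). Its log2 deviation was -3.66 ± 0.34 (edgeR adjusted p = 0.00909), and the call held in 10 of 15 alternatives. The gene at 2853692 to 2854453 on scaffold 4 (minus strand) had shares of 7.37% (6.29% to 8.63%), 16.3% (14.8% to 18.0%), 16.3% (8.12% to 30.0%) and 33.9% (23.3% to 46.3%), and deviated by -3.48 ± 0.42 (edgeR adjusted p = 0.0225), a call that held in 9 of 14 alternatives. In Co this gene followed the accession, with 88.4% (75.5% to 94.9%) and 40.0% (21.9% to 61.3%) for pair 1. For pair 2 the shares were 85.0% (70.9% to 92.9%) and 45.5% (29.8% to 62.0%).

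The gene at 11024878 to 11025342 on scaffold 7 (plus strand) had shares of 25.2% (21.8% to 29.0%), 11.4% (7.59% to 16.8%), 14.8% (5.92% to 32.5%) and 8.62% (3.74% to 18.6%), a deviation of -3.52 ± 0.45 (edgeR adjusted p = 0.0230) whose call held in 9 of 13 alternatives. The other two lay closer to the dosage. The gene at 10356508 to 10357350 on scaffold 8 (plus strand) had 34.2%, 47.8%, 42.7% and 42.9% and deviated by -1.48 ± 0.21 (edgeR adjusted p = 0.0280), a call that held in 7 of 15 alternatives. In Co pair 2 its summed reads gave 80.3% (69.2% to 88.1%) and 79.5% (65.5% to 88.8%), on the other side of the dosage. The 2 SNPs there differed, however, with 59.1% and 90.9% in direction 1. In direction 2 the only SNP with 20 or more reads gave 65.4%, near the dosage. The gene at 12463630 to 12464535 on scaffold 3 (minus strand) had 37.8%, 51.0%, 16.2% and 56.4% and deviated by -1.61 ± 0.23 (edgeR adjusted p = 0.0285, held in 8 of 14 alternatives), with 15 SNPs in pair 1 that ran from 31.8% to 51.1% in direction 1. In direction 2 of pair 2 its 4 SNPs with 20 or more reads ran from 31.7% to 70.8%, on both sides of the dosage.

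Of the 2 maternal Co genes on 1 side throughout, the one with more reads, at 3770255 to 3770896 on scaffold 3 (minus strand), had 66 maternal and 0 paternal reads in direction 1 of pair 1, and 59 and 3 in direction 2; the pair 2 directions gave 124 and 4, then 166 and 0, at 1 SNP. Its maternal share of 95.2% or more in each direction went with a fitted deviation of 6.51 ± 0.74 (edgeR adjusted p = 3.14e-06), whose size depends on the prior count because 2 directions had no paternal read. The call held in 12 of 15 alternatives. The gene was also used in Cg pair 2, at 87.0% (67.9% to 95.5%) and 78.9% (63.6% to 88.9%). The other maternal Co gene, at 9674781 to 9675236 on scaffold 5 (minus strand), rested on 20 and 1 and 22 and 1 reads in pair 1 and on 32 and 0 and 42 and 0 in pair 2, which allows maternal shares down to 90.6% and 92.9%. It deviated by 4.60 ± 0.93 (edgeR adjusted p = 0.00202, held in 9 of 14 alternatives), and in Cg pair 1 it followed the accession, with 99.1% (95.1% to 99.8%) and 29.1% (20.3% to 39.9%).

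**Figure D5:**
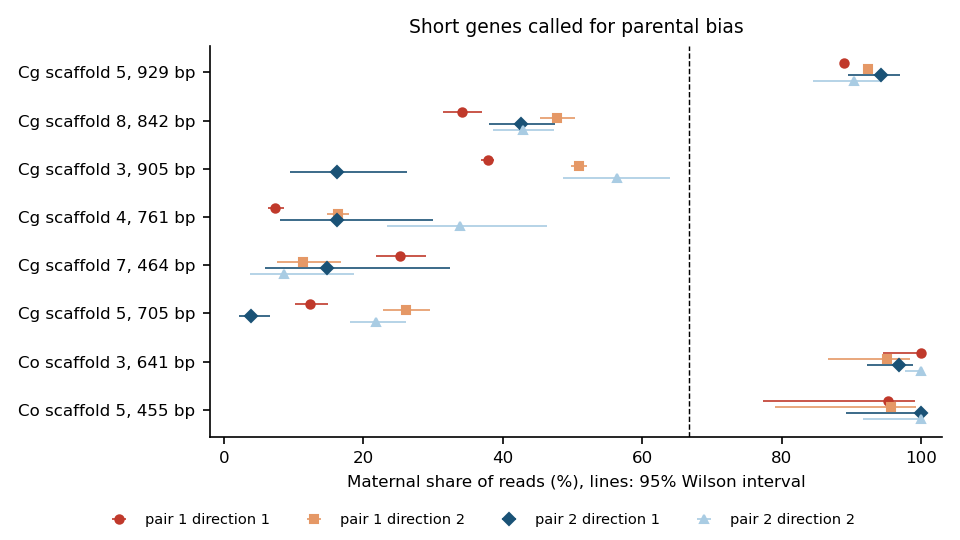
Maternal share of reads (horizontal axis, percent) in each of the 4 directions of the species for the 8 short genes called for parental bias and on 1 side of the dosage throughout, with 95% Wilson intervals as lines and the dosage of 66.7% dashed. The 3 maternal genes lie at 89.0% or above in every direction, and the 5 paternal genes between 3.83% and 56.4%.

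The 4 other Co calls did not lie on 1 side. Their values were seen before they were singled out here. The gene at 18888569 on scaffold 1, with the accession difference given above, was called paternal at -0.95 ± 0.23 (edgeR adjusted p = 0.0109), but over 15 alternatives the deviation ran from -1.79 to -0.13 and the call held in 8. The gene at 10363365 to 10364120 on scaffold 8 (minus strand) was called maternal at 1.62 ± 0.26 (edgeR adjusted p = 0.000160), with shares of 62.9%, 96.9%, 63.0% and 94.8%, a call that held in 9 of 15 alternatives with deviations of 0.91 to 2.37. At 7959970 to 7960461 on scaffold 1 (plus strand) the shares were 80.0%, 21.7%, 76.0% and 34.9%, and at 2010474 to 2010932 on scaffold 4 (plus strand) 66.7%, 7.69%, 67.3% and 31.2%. Their calls, both paternal, held in 8 of 15 and 7 of 14 alternatives. In all 4 the directions of a pair lay far apart in the same order in both pairs.

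The accession terms of the same fits called more short genes than the parent term in 3 of the 4 pairs. For Cg pair 1 edgeR called 4 short genes, 2 each way (2.78%), against 17 longer genes (0.562%) and 0.73% of all tested (0.243% and 0.487% higher from the direction 1 and the direction 2 mother). For Cg pair 2 it called 17, of which 16 were higher from the direction 2 mother (11.8%), against 214 (7.07%) and 7.06% (0.135% and 6.92%). In Co pair 1 it called 17 (6 and 11, 27.9%), against 155 (16.5%) and 15.9% (6.51% and 9.4%), and in Co pair 2 13 (4 and 9, 21.3%), against 139 (14.8%) and 14.2% (7.09% and 7.09%). Genes already described were among those called, such as the scaffold 6 gene at 2934104, with a log2 ratio of the direction 1 over the direction 2 accession of -8.39 ± 0.43 in Cg pair 2 (edgeR adjusted p = 0.00166). In Co the scaffold 5 gene at 9605695 had -6.42 ± 0.58 in pair 1 (edgeR adjusted p = 4.27e-08) and -9.28 ± 0.65 in pair 2 (5.04e-10).

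Short genes used in both pairs of a species could be set side by side. In Co 4 short genes were higher from the direction 1 accession in pair 1 and 4 in pair 2, with 4 in both, against 61, 61 and 46 longer genes. For the direction 2 accession the numbers were 8, 7 and 7, against 72, 59 and 44. The genes in both made up 87.5% of the pair 1 list and 100% of the pair 2 list, against 61.1% and 74.6%. In Cg, where the pairs differ in their accessions, the corresponding numbers were 8, 7 and 0, against 99, 70 and 1, and 9, 30 and 6, against 117, 489 and 24. Maternal short genes in Cg numbered 8 in pair 1 and 6 in pair 2 with 3 in both (37.5% and 50% of the lists), against 82, 33 and 19 longer genes (23.2% and 57.6%). Paternal ones numbered 4 and 6 with 4 in both (100% and 66.7%), against 61, 139 and 36 (59.0% and 25.9%). Across the 144 Cg and 61 Co short genes the mean deviations of the pairs correlated with Pearson's r of 0.42 and 0.72 (Spearman's rho 0.43 and 0.51), against 0.42 and 0.61 (0.21 and 0.34) for the longer genes. The accession differences correlated with r of 0.27 in Cg and 0.92 in Co (rho 0.13 and 0.64), against 0.06 and 0.87 (0.05 and 0.58). These are correlations across genes, which are not independent replicates, and they are given as a description.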

How the data were processed

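Endosperm RNA reads were counted by the authors at SNPs between the parents, and the deposited values are raw counts of maternal and paternal reads per SNP and direction, per the file headers. The submitters' processing notes list the tools Trimmomatic, Bowtie2 and Bismark; for the RNA aligner, build and annotation no source used here gives a name. A further 23 columns per table were not used, and DNA samples of leaves, with or without bisulfite, were not analysed here. No header ties a column to a sample, so replicates and sequencing runs cannot be told apart within a column. Each gene has 1 residual degree of freedom, to which edgeR adds information shared across genes (prior degrees of freedom 4.99 in Cg and 19.4 in Co). The p-values thus draw most of their variance from other genes and little from the spread of a gene between these libraries. That spread may be technical.

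Exonic SNP counts were summed per gene, the annotated interval of the SNP, with Python 3.11.15, pandas 2.3.3, numpy 2.4.6 and scipy 1.17.1, and drawn with matplotlib 3.10.9. Genes needed at least 20 reads in both directions. With 0.5 added to each count, the fold was a log2 deviation of 1. Quasi-likelihood tests of edgeR 4.0.16 (R 4.3.3) ran on all genes with 20 reads in each of 4 directions of a species, with Benjamini-Hochberg adjustment over all of them and a threshold of 0.05. The script was tested on simulated data. The library was part of the model because both alleles are counted in each. The fit leaves 1 residual degree of freedom, and a single table leaves none, so tables were described without a test. DESeq2 1.42.0 and the other alternatives are in the closing section. Genes named in the text were the short genes called on 1 side in all directions, the strongest past the fold on each side in a table, the most read and those next to the length limit, except where chosen after their values were seen. Members and rules were chosen with earlier results of these data known.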

Additional observations from a re-analysis of the deposited data

Results flagged for a closer look

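The median maternal share of short genes in direction 1 of Cg pair 2 was 52.8%, far from the other 3 Cg directions, of which the nearest was at 67.3%. The gap was 0.843 of the whole range, above Dixon's 95% limit for 4 values. Genes of 1000 to 5000 bp gave 54.8% in the same direction. Of the 18 sets of values examined in this way 1 stood out, and chance gives about 1 in 20.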

How the results depend on the processing

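Of 150 alternative values, 99 stayed on the same side and within the spread of the reported value and 51 moved. Some comparisons with the longer genes turned, as given below. The cause of each move was not tested except where the setting itself changes the reads or genes counted.

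The share past the fold changed with the minimum of reads. With no minimum the parental share was 13.6% in Cg pair 1, 14.2% in Cg pair 2, 18.1% in Co pair 1 and 14.0% in Co pair 2, and the accession share 25.4% in Cg pair 1 and 36.8% in Cg pair 2. With at least 50 reads the parental share was 2.94% in Co pair 1 and 1.79% in Co pair 2. With a log2 deviation of 2 the parental share was 6.00%, 2.30% and 3.17% in Cg pairs 1 and 2 and Co pair 1, and the accession share 8.88% and 10.7% in the Cg pairs. Genes with 20 to under 200 reads gave an accession share of 24.4% in Cg pair 1. Shares of the longer genes at these settings are not listed, so these values alone do not set short genes apart. The accession share was higher in short genes than in genes of 1000 to 5000 bp in 35 of 36 comparisons of table and setting, the exception being Cg pair 2 with the most read exonic SNP only (29.1%, against 29.6%), and the parental share in 34 of 40. Of the 6 comparisons with a lower parental share, 5 were in Co pair 2, out of 10 there, and 1 was in Cg pair 2. Settings of a table count largely the same genes, so these comparisons are not independent.

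The median maternal share over both directions was 63.7% with no minimum and 63.9% with all SNPs in Cg pair 1, against 64.6% as reported, and 55.8% with no minimum in Co pair 1, against 62.8%. Median reads per exonic SNP were 174, 63.1, 109 and 122 with at least 50 reads in Cg pairs 1 and 2 and Co pairs 1 and 2, against 127, 20.4, 82.2 and 86 in genes of 1000 to 5000 bp. With no minimum they were 22.5, 4.97, 10.0 and 14.7, against 61.2, 6.0, 13.2 and 18.0, so that short genes were the lower ones in all 4 tables. With all SNPs it was 80.1 in Cg pair 1.

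The edgeR calls of parental bias in Cg, 6 as reported, became 10 of 144 with the null at the median (4 maternal, 6 paternal), against 150 of all 3698 tested. They became 10 with DESeq2 (4 and 6), against 136, and 2 of 74 with at least 50 reads (1 and 1), against 29 of 1821. With no minimum they became 31 of 2883, a smaller share than the 276 of all 21193 tested, with 21 maternal and 10 paternal, against 1 and 5 as reported. They became 0 with the most read exonic SNP only (9 at an unadjusted p under 0.05), and 0 to 6 with 1 direction left out. In Co, 6 (3 on each side) became 3 with DESeq2, all maternal, and 0 to 3 with 1 direction left out. Without the replicate block, the library term, edgeR called 0 short genes in Cg (4 unadjusted) and 2 in Co. Without the accession term, an alternative chosen after seeing the data, it called 0 in Cg (9 unadjusted) and 0 in Co (5 unadjusted). Accession calls in Cg pair 1, 4 as reported, were 8 with DESeq2, 2 with at least 50 reads, 9 with all SNPs and 0 with the most read exonic SNP only (25 unadjusted). They were 8 with only the SNPs entered in both directions, also chosen after seeing the data. In Cg pair 2, 17 became 26 with DESeq2 and 8 with at least 50 reads, and in Co pair 1, 17 became 10 with DESeq2 and 11 with at least 50 reads. Counts over all genes tested are not given for these accession settings or for the Co settings. In Cg they are also not given for the parental fits with the most read exonic SNP only or with a direction left out. Nor are they given for the Cg fits without the library term or without the accession term. A change particular to short genes therefore cannot be told there from a change in all genes.

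Depth limits single genes: many short genes rest on 1 SNP, and a 0 count of paternal or maternal reads can still allow a share several points from 0. A species fit with 1 residual degree of freedom cannot separate biological from technical spread between libraries.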
